A study of Mus musculus with 36 samples.

Results

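The comparison described here is of ribosome-protected fragments (RPFs) from fraction 5/6 of WT mouse brain, made with a standard or with a low nuclease preparation. It holds 6 of the 36 libraries of the series, chosen by their labels: 3 WT fraction 5/6 standard nuclease libraries and 3 WT fraction 5/6 low nuclease libraries. Brains of C57BL/6 mice were taken at postnatal day 5, and 10 brains were pooled for a preparation, so that a library is a pool of whole brains and not an animal. Polyribosomes were resolved on a sucrose gradient, and the ribosome clusters of fractions 5 and 6 were kept apart from the pellet, which holds the RNA granules. The standard preparation was made in a buffer with 10 mM MgCl2, with an amount of RNase I set by the absorbance of the sample, at room temperature, and its monosomes were pelleted. The low nuclease preparation was made in a buffer with 2.5 mM MgCl2, with a fixed small volume of RNase I from another supplier, in the cold, and its monosomes were taken from gradient fractions. The strength of digestion, the Mg2+ concentration, the temperature and the way the monosomes were recovered therefore changed together and cannot be told apart in any difference below. By the paper's methods, the 3 replicates of a condition each received a linker, a short sequence tag, and were then joined. Reverse transcription, removal of ribosomal RNA and PCR followed on the joint pool. The pool of a group thus changed with its label and cannot be told apart from it either. The series also holds libraries from the pellet, the same fractions from FMR1 KO mice, which lack FMRP, and RNA from whole brain homogenate.

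In ribosome profiling, RNase trims the mRNA that is not covered by a ribosome, and the fragment that is left inside the ribosome is sequenced. The count of a gene then follows how many ribosomes sat on its mRNA, but also which fragments survived digestion, size selection and removal of ribosomal RNA reads. Fragments of ribosomal RNA, cut from the ribosome itself by the nuclease, are the main unwanted product of the method. Ribosome clusters of developing brain hold mRNAs of the cytoskeleton, of RNA-binding proteins and of synaptic proteins, and ribosomes that make secreted and membrane proteins are held at the endoplasmic reticulum (ER) by the signal recognition particle and the translocon.

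A single gene took most of the difference in raw counts. Cdk8, which encodes a kinase of the Mediator complex and lies on chromosome 5 from 146231230 to 146302874 of GRCm38, held 49.96%, 59.21% and 45.96% of all counts in the standard libraries. In the low nuclease libraries it held 5.62%, 5.02% and 2.69%. The means were 51.7% ± 6.79 and 4.44% ± 1.55 (SD, n = 3 each), and the groups did not overlap (exact permutation test, two-sided, p = 0.1, the smallest that 3 against 3 libraries allow). The gene was dropped before the comparison, so that its share did not set the level of every other gene. Totals of 33212827, 21594932 and 22749693 counts in the standard libraries then came down to 16618125, 8808890 and 12293720, and those of 25756943, 44133113 and 45374271 in the low nuclease libraries to 24309361, 41919589 and 44155715. The standard libraries were thus the shallower ones for every gene below. They were also the more concentrated ones: the 10 largest genes took 18.7%, 23.03% and 17.1% of the remaining counts, against 11.3%, 11.8% and 11.6%.

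The library labelled WT fraction 5/6 standard nuclease replicate 3 went against its label. Fmr1, which encodes FMRP and is disrupted in the KO mice, had 1663, 604 and 39 counts in the standard libraries and 2170, 3935 and 5109 in the low nuclease libraries. In CPM (counts scaled to a common total) of all counts but those of Cdk8, the library labelled replicate 3 held 3.17, below the range of 4.79 to 10.7 in the 12 FMR1 KO libraries, whereas the other 5 libraries held 68.6 to 116. Wdfy1, a gene that is also low in the KO libraries, followed Fmr1, with 527, 194 and 21 counts in the standard libraries and 1110, 2022 and 2290 in the low nuclease libraries. The gene order of this library was also closer to pellet libraries than to its own group: its Spearman correlation was 0.977 with FMR1 KO pellet standard nuclease replicate 3 and 0.967 to 0.969 with the 3 WT pellet standard nuclease libraries, but 0.935 and 0.932 with the other WT fraction 5/6 standard nuclease libraries. Standard replicates 1 and 2 had 0.950 with each other, at most 0.952 and 0.940 with any pellet library, and up to 0.957 and 0.954 with the FMR1 KO fraction 5/6 standard nuclease libraries. At most 3.08% of genes had an equal count in the library labelled replicate 3 and any other RPF library. Results are therefore given with this library and without it.

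**Figure D1:**
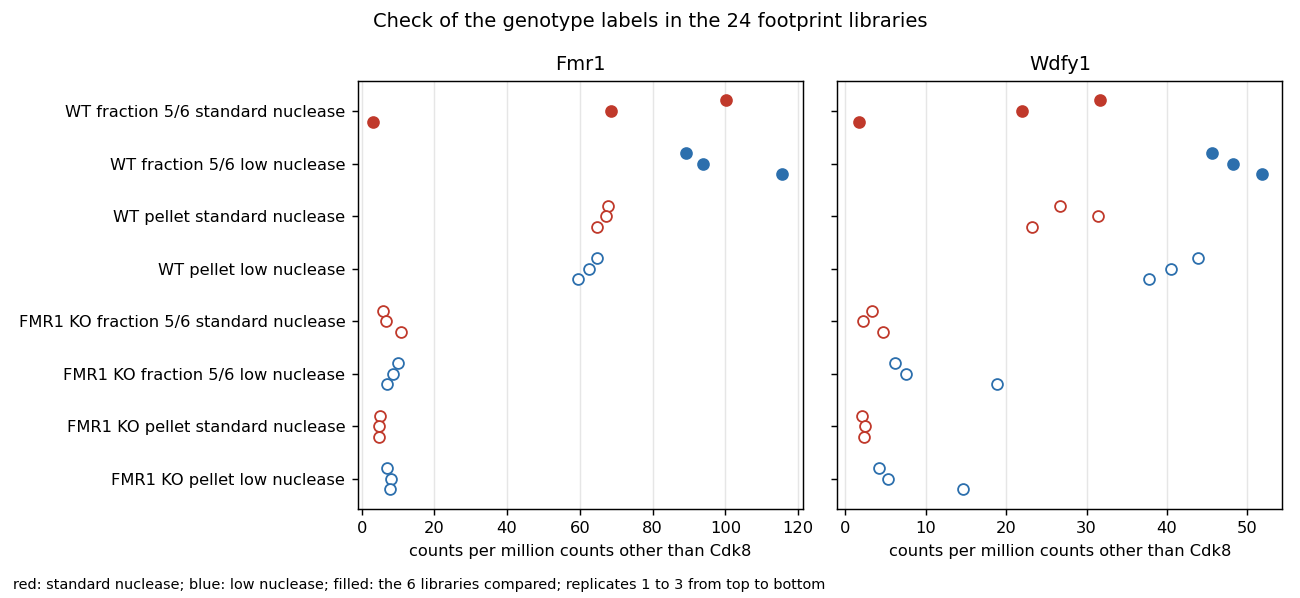
Fmr1 and Wdfy1 in CPM of all counts but those of Cdk8 in each of the 24 RPF libraries, by group; each point is a library, and the 6 libraries compared are filled. The library labelled WT fraction 5/6 standard nuclease replicate 3 lies at 3.17 for Fmr1, below the FMR1 KO libraries, and the other 5 filled points lie between 68.6 and 116.

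Of 16567 protein-coding genes other than Cdk8, 14633 had enough counts to be tested. Of these, 430 were higher and 990 were lower with standard nuclease, by edgeR's quasi-likelihood test at a Benjamini-Hochberg adjusted p under 0.05, the test behind every adjusted p below. That is 2.94% of the genes tested higher and 6.77% lower, or 9.70% in all, and 4889 genes (33.4%) had an unadjusted p under 0.05. The 3 libraries of a group did not overlap those of the other group in any gene that passed, but this also held higher for 17.5% and lower for 22.8% of all genes tested. The median log2 fold change (standard minus low) of all genes was -0.0025, whereas that of the genes called was 1.68 on the higher and -1.40 on the lower side. At least 2-fold changes were seen in 289 genes higher (1.97%) and 809 lower (5.53%), or 7.50% in all, and at least 16-fold changes in 109 higher and 68 lower. The genes called higher took 25.2%, 25.7% and 20.0% of the counts of the standard libraries and 1.90%, 2.73% and 1.57% of the low nuclease libraries. The genes called lower took 0.869%, 0.540% and 0.877% of the standard and 12.3%, 11.1% and 13.8% of the low nuclease libraries.

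Without the library labelled standard replicate 3, 794 genes (5.24% of 15147 tested) were higher and 1249 (8.25%) were lower. A total of 1128 genes were called with and without it, all in the same direction, 292 were called only with it and 915 only without it. Leaving out any other library lowered the count: 405 and 268 genes passed without standard replicates 1 and 2, and 485, 112 and 221 without low nuclease replicates 1, 2 and 3. Genes higher then outnumbered those lower without standard replicate 1 (227 and 178) and without standard replicate 2 (155 and 113), as they did in a fit of all 24 RPF libraries (3122 and 1939).

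**Figure D2:**
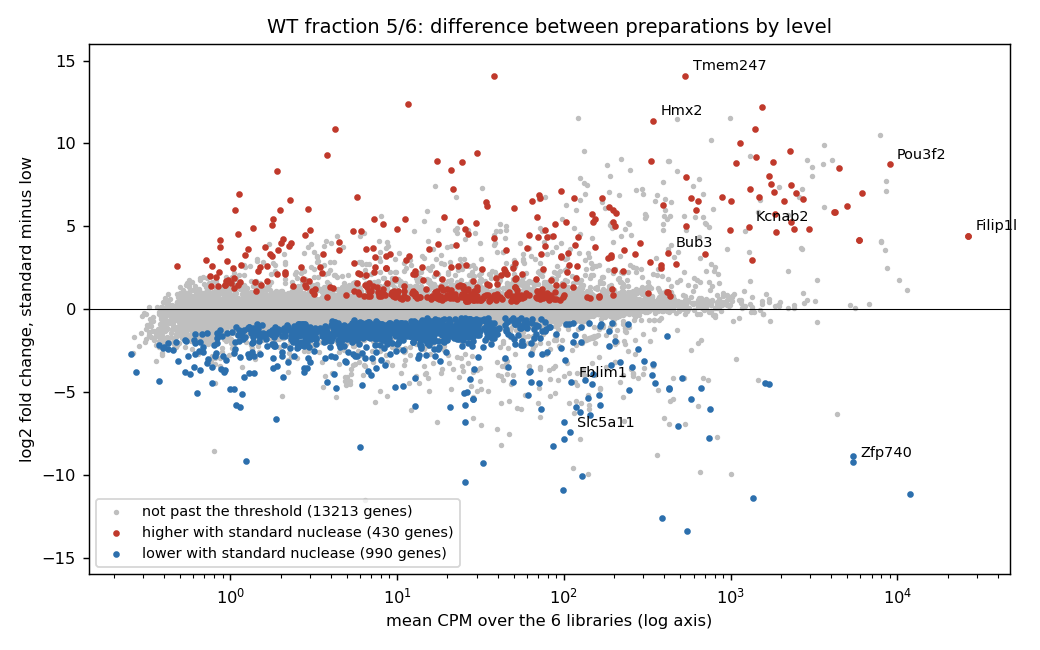
Log2 fold change (standard minus low nuclease) of each of the 14633 genes tested against its mean CPM over the 6 libraries, here scaled by TMM factors, on a log axis. The 430 genes called higher are red and the 990 called lower are blue; the largest differences in either direction sit far outside the band of the other genes and reach the highest levels.

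The libraries of a preparation were more like each other than like those of the other preparation. Spearman correlations were 0.932 to 0.950 among the standard, 0.953 to 0.968 among the low nuclease libraries and 0.873 to 0.917 between them. The mean distance between groups was 1.49 times that within groups (one-sided p = 0.1 by exact permutation of the libraries, which cannot go lower). The standard libraries were also less alike among themselves, with a median SD of 0.331 per gene on the log2 scale against 0.197. Both the SD and the distance include the library labelled replicate 3 and are not given without it. Standard replicates 1 and 2 alone had a correlation of 0.950, close to the lowest of 0.953 among the low nuclease libraries.

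The largest rises came from genes that were nearly empty in the low nuclease libraries. Tmem247, a transmembrane protein gene on chromosome 17 (86917348 to 86922374), stood at 1086, 1348 and 773 CPM with standard nuclease and at 0.0670, 0.0917 and 0.0172 CPM with low nuclease. Its log2 fold change was 14.08 ± 0.76 (SE), with an adjusted p of 0.00296, and 14.28 without the library labelled replicate 3 (adjusted p = 0.00377). Hmx2, a homeobox transcription factor of the inner ear and hypothalamus on chromosome 7 (131548773 to 131558014), had 671, 936 and 445 CPM against 0.134, 0.238 and 0.378. All 3 standard libraries held these genes at high levels, that labelled replicate 3 included.

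Gal3st2, a galactose sulfotransferase gene, and Prl7d1, a placental prolactin-family gene, had no count in any low nuclease library. Their 1787 and 765 counts in the standard libraries were at least 1103-fold and at least 339-fold higher than a floor of 3 counts in each low nuclease library. Slc10a4 (a vesicular carrier of the bile acid transporter family), Slc14a2 (a urea transporter of the kidney), Creb3l1 (a membrane-bound transcription factor) and Hapln4 (a link protein of perineuronal nets) followed, with log2 fold changes of 10.90, 10.01, 9.55 and 8.94 and adjusted p between 0.00672 and 0.0131. Among these rises were genes known from kidney, placenta or sperm, but also genes of the nervous system such as Hapln4. Neither share was set beside that of all genes. Zpbp2, of the sperm head, had 33.0, 122 and 25.3 against 0.0670, 0.183 and 0 CPM, and Cyp2c23, a renal cytochrome P450, had 30.1, 69.7 and 4.29 against 0.1004, 0.0733 and 0.0343 CPM.

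Other rises rested on some libraries only. Tnnt2, the cardiac troponin T gene, stood at 5416 and 3783 CPM in standard replicates 1 and 3 but at 1.36 CPM in replicate 2, with 0.736, 0.513 and 0.704 CPM in the low nuclease libraries (log2 12.19 ± 2.80, adjusted p = 0.0483). Lingo3, a leucine-rich repeat membrane protein gene, had 5688, 17.4 and 2849 CPM against 3.85, 4.88 and 6.01 (log2 9.18 ± 2.03, adjusted p = 0.0448). Both fell out of the calls without the library labelled replicate 3, with log2 fold changes of 12.02 and 9.18 and adjusted p of 0.0598 and 0.0553.

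**Figure D3:**
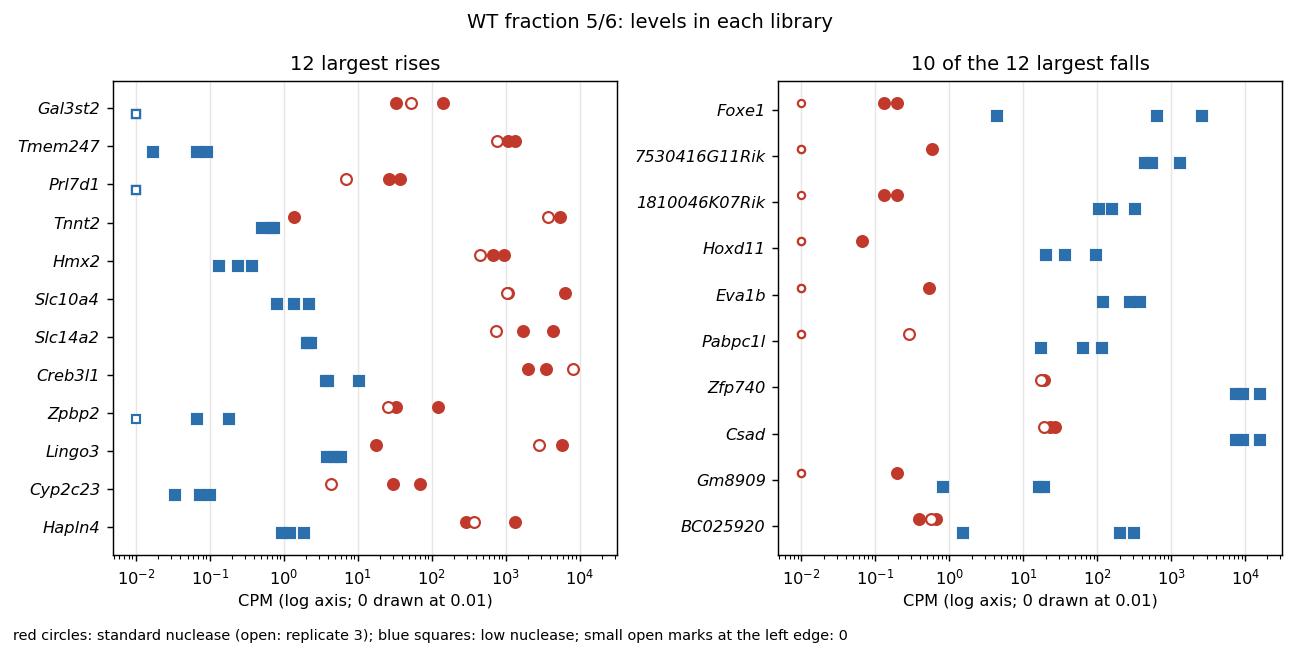
CPM in each library for the 12 largest rises (left) and 10 of the 12 largest falls (right) among genes called at a mean of at least 5 CPM, on a log axis with 0 drawn at 0.01; red circles are standard and blue squares low nuclease libraries, and open circles are the library labelled standard replicate 3. The groups are apart in every gene shown, and in Tnnt2 and Lingo3 standard replicate 2 lies close to the low nuclease libraries.

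The largest falls were of the same kind in the other direction. 7530416G11Rik, a gene known by its RIKEN clone name, had 0, 0.581 and 0 CPM with standard nuclease and 557, 449 and 1312 CPM with low nuclease. By pooled counts it was 8425-fold higher with low nuclease, with a 95% interval for counting error of 2883 to 40860 (adjusted p = 0.0143). By the group means in CPM it was 3988-fold higher. It was near 0 in all 3 standard libraries.

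Zfp740, a zinc finger gene, and Csad, which encodes an enzyme of taurine synthesis, overlap on chromosome 15 and cannot be told apart by their counts. They held 1600585 and 1599239 counts in the low nuclease libraries, and their log2 fold changes were -9.23 and -8.88. Foxe1, a thyroid transcription factor, had 3 counts in all in the standard libraries, and 2633, 644 and 4.46 CPM with low nuclease. By pooled counts it was 8177-fold higher with low nuclease, with an interval of 2798 to 39650, and by the group means in CPM 10040-fold. Hoxd11, a limb and kidney homeobox gene, had 1 count against 6100, a ratio of 1312 with an interval of 235 to 51830, and of 2302.5 by the group means in CPM. BC025920, with 1.54, 200 and 316 CPM in the low nuclease libraries, and Gm8909, with 18.8, 0.825 and 16.1 CPM, were low in 1 of the 3, and with Foxe1 they lost their call without the library labelled replicate 3 (adjusted p = 0.0856, 0.0866 and 0.0663). Their log2 fold changes were -8.24, -8.30 and -13.38 with that library and -8.24, -7.76 and -12.77 without it.

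Of the 10 most abundant genes of these libraries, 4 passed and 6 did not. Pou3f2, which encodes the neuronal transcription factor BRN2 and lies on chromosome 4 (22482780 to 22488366), had 12685, 24157 and 17010 CPM with standard nuclease against 44.2, 42.7 and 40.3 CPM with low nuclease. That was a log2 fold change of 8.73 ± 0.62 (adjusted p = 0.00470). Cmss1, a nucleolar protein gene, and Filip1l, a filamin-interacting protein gene that lies inside it on the other strand of chromosome 16, had the highest levels of all, with 55602, 54094 and 42336 CPM for Cmss1 against 1353, 4684 and 1015. Their counts in the standard libraries, 1559153 and 1558745, were nearly equal, and the table cannot divide them (log2 4.43 and 4.44, adjusted p = 0.0378 for both).

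Near-equal counts also occurred in genes that do not overlap in the annotation. Ppp6r1, a phosphatase regulator, and Ptprh, a receptor phosphatase, are 27453 bases apart on chromosome 7 and had 315243 and 313558 counts in the standard libraries (adjusted p = 0.0522 and 0.0531). Scn4a, the sodium channel of skeletal muscle, and Limd2, 157731 bases away on chromosome 11, had 168600 and 169012 counts there, nearly all in replicates 1 and 2, and 14 and 2276 counts with low nuclease.

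The deposited peak lists, which exist for the standard libraries only, were set beside these levels. A peak is a place where RPF coverage on a transcript stands out, called by the authors in each library. None of the 12 largest rises had a peak in any of the 3 lists, beside 37% of all genes tested and 82.5% of those with at least 100 CPM in the standard libraries that had 1 or more. Pou3f2 had 20, 8 and 19 peaks, but the highest reached a height of 60, so that it held 3177, 4454 and 4959 counts per unit of its highest peak. The median gene with a peak held 30.6, 23 and 36.4 counts per unit in the same libraries, and Tubb2b, a neuronal tubulin gene, held 8.88, 6.88 and 8.89. The authors called peaks on transcripts by other steps than those of the count table.

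Against this background, gene lists were described by how many members passed and by their median. Genes for receptors and channels of the neuronal membrane were counted first. Of 34 glutamate and GABA receptor subunits, 11 (32.4%) were lower and 1 was higher, beside 6.77% and 2.94% of all genes, and the median log2 fold change was -0.91. Without the library labelled replicate 3, 19 were lower and 1 was higher, beside 8.25% and 5.24% of all genes, and the median was -1.29. The ionotropic glutamate receptor genes that fell were Grik2, Grik5, Grin2b, Gria4 and Grin3a, and the GABA-A receptor genes included Gabra2, Gabra3 and Gabra5. The metabotropic receptor gene Grm4 fell with them.

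Over all 34 members the log2 fold changes spanned -2.59 to 9.87, and 5 were positive. The summed level of the list was 21989, 591 and 639 CPM with standard against 671, 868 and 1010 CPM with low nuclease, so that standard replicate 1 stood far above the others. Grik2, a kainate receptor subunit, had 4.86, 6.01 and 8.003 CPM with standard and 15.9, 20.95 and 33.02 CPM with low nuclease (log2 -1.89 ± 0.34, adjusted p = 0.0298). Gabra5, an extrasynaptic GABA-A receptor subunit of the hippocampus, had 8.38, 6.59 and 8.38 against 18.7, 17.2 and 19.0 CPM (log2 -1.22 ± 0.15, adjusted p = 0.0153). Grin2b, the NMDA receptor subunit of the immature brain, had 23.9, 25.6 and 51.5 against 71.2, 127 and 135 CPM (log2 -1.72 ± 0.39, adjusted p = 0.0483). In Grin2b and in many other members, the library labelled replicate 3 lay between the other standard libraries and the low nuclease libraries. Gria2, the AMPA receptor subunit that sets calcium permeability, had 19.6, 17.05 and 48.3 against 35.2, 51.0 and 50.3 CPM, and it passed only without that library (adjusted p = 0.298 with and 0.0281 without). The gene of the list called higher was Gabrb1, a beta subunit, with 76.1, 174 and 69.5 against 29.8, 26.5 and 33.2 CPM (log2 1.83 ± 0.38, adjusted p = 0.0403).

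Of 46 voltage-gated channel genes, 13 (28.3%) were lower and 2 (4.35%) were higher, beside 6.77% and 2.94% of all genes, with a median of -1.06. With the library labelled replicate 3 left out, the counts were 17 and 2, beside 8.25% and 5.24% of all genes, and the median was -1.31. The genes that fell included those of potassium channels (Kcna2, Kcnd3, Kcnc1, Kcnh3, Kcnb2 and Kcnh7), sodium channel beta subunits (Scn2b and Scn3b), the T-type calcium channel Cacna1i, the calcium channel beta subunit Cacnb4 and the pacemaker channel Hcn2. Cacna1i had 2.33, 3.68 and 5.24 against 37.5, 44.7 and 15.6 CPM (log2 -3.13 ± 0.50, adjusted p = 0.0250). Kcnh3, a potassium channel of the forebrain, had 2.66, 3.49 and 3.33 against 7.60, 9.62 and 13.4 CPM (log2 -1.71 ± 0.27, adjusted p = 0.0243). Both genes of this list that rose encode cytoplasmic beta subunits, which have no transmembrane segment: Kcnab2 had 958, 3184 and 3320 against 72.2, 72.7 and 92.5 CPM (log2 4.97 ± 0.58, adjusted p = 0.0143) and Cacnb2 had 79.0, 88.3 and 52.9 against 12.9, 12.9 and 16.2 CPM (log2 2.39 ± 0.23, adjusted p = 0.00838). Cacnb4, likewise a cytoplasmic subunit, fell by 0.69 on the log2 scale (adjusted p = 0.0431). Scn4a, the sodium channel gene named above, is not a member of this list. It was called higher without the library labelled replicate 3, with 168600 counts in the standard libraries against 14 with low nuclease. The rises of channel genes were thus not limited to cytoplasmic subunits.

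Genes of the ER machinery that receives such proteins were counted next. Of 43 genes for translocation and folding, 10 (23.3%, beside 6.77% of all genes) were lower, 33 did not pass and none was higher in the edgeR test (2 at an unadjusted p under 0.05, 2 by DESeq2), and the median was -0.62. When the library labelled replicate 3 was left out, 18 were lower and 1 was higher, beside 8.25% and 5.24% of all genes. The median of the list was then -1.04. All 4 subunits of the translocon-associated protein complex fell, Ssr1, Ssr2, Ssr3 and Ssr4, with log2 fold changes of -1.06, -1.19, -1.12 and -1.18. Ssr3 had 14.5, 13.4 and 15.6 CPM against 31.7, 27.9 and 35.3 (adjusted p = 0.0162). With them fell signal peptidase subunits (Spcs2 and Spcs3), the signal recognition particle receptor subunit Srprb, the cyclophilin Ppib and the chaperones Dnajb11 and Dnajc3, the last by 2.07 on the log2 scale (3.46, 4.26 and 4.10 against 13.9, 11.02 and 24.2 CPM, adjusted p = 0.0259). The gene that passed as higher without that library was Srp72, a cytosolic subunit of the signal recognition particle (157, 148 and 125 against 98.6, 106 and 101 CPM, log2 0.58 without it, adjusted p = 0.0399).

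Genes of splicing factors and hnRNPs, nuclear proteins of which several sit in RNA granules, had a median above 0. Of 46 genes, 4 (8.70%, beside 2.94% of all genes) were higher and 1 (2.17%, beside 6.77%) was lower, and the median was 0.49. When the library labelled replicate 3 was left out, 13 were higher and 1 was lower, beside 5.24% and 8.25% of all genes, and the median was 0.47. Snrnp70, of the U1 snRNP, had 123, 154 and 279 against 47.3, 54.6 and 48.9 CPM (log2 1.88 ± 0.33, adjusted p = 0.0287). Tra2a and Tra2b, a pair of splicing enhancer-binding proteins, were higher by 1.00 and 0.77 on the log2 scale (adjusted p = 0.0393 and 0.0275), and Srsf2 by 0.70 (adjusted p = 0.0399). The genes that passed only without that library included Hnrnpa1, Hnrnpa3, Hnrnpd, Srsf4 and Srsf7, and Hnrnpa3 had 244, 346 and 134 against 124, 113 and 125 CPM. Hnrnpf was lower, with 7.85, 7.75 and 5.43 against 12.7, 12.7 and 14.4 CPM (log2 -0.93 ± 0.19, adjusted p = 0.0393).

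**Figure D4:**
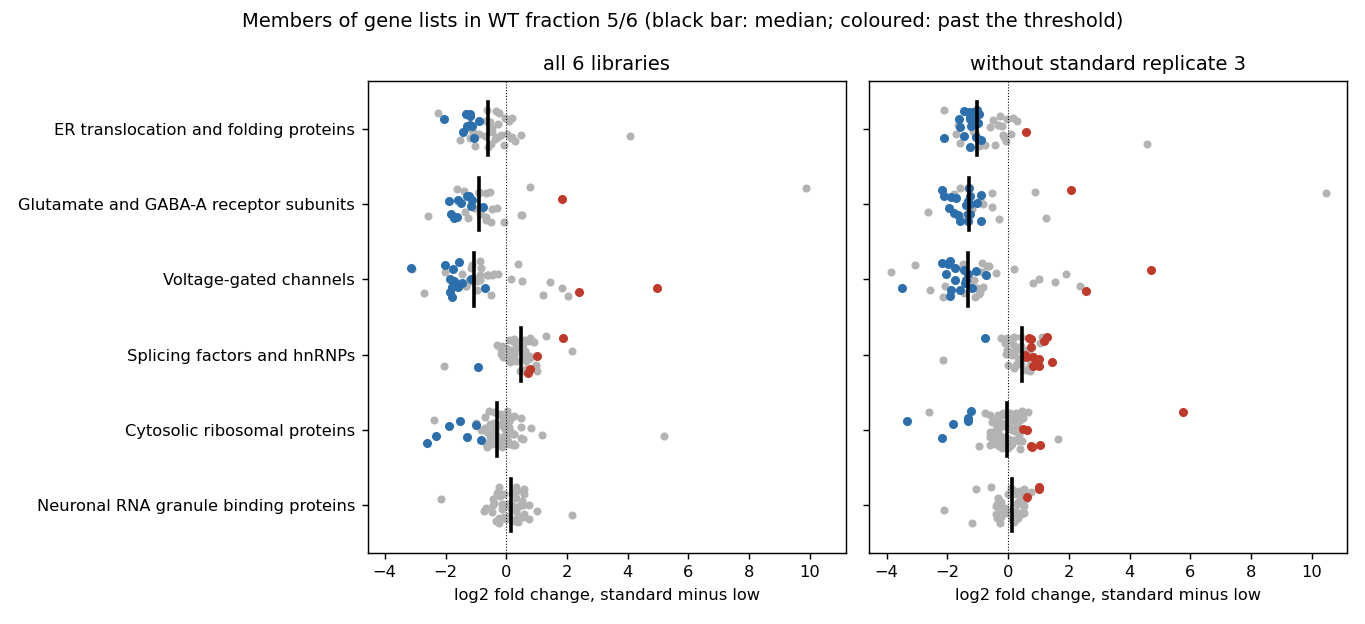
Log2 fold change (standard minus low nuclease) of each tested member of 6 gene lists, with all 6 libraries (left) and without the library labelled standard replicate 3 (right); each point is a gene, coloured where it passed, and black bars are medians. The medians of the ER, receptor and channel lists lie at -0.62, -0.91 and -1.06 on the left and at -1.04, -1.29 and -1.31 on the right, and that of splicing factors at 0.49 and 0.47.

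Relative to the median of all genes, the 3 lower lists stayed negative and the splicing list positive under each of the 11 settings run: between -0.45 and -1.02 for the ER list, -0.73 and -1.28 for the receptors, -0.89 and -1.30 for the channels, and 0.36 to 0.51 for the splicing factors. Scaling by library size alone, which moved the median of all genes to -0.71, put the splicing list at -0.24. The numbers of calls were less stable. Leaving out any library other than that labelled standard replicate 3 left 0 to 3 lower ER genes, 0 to 5 receptor genes and 0 to 9 channel genes by edgeR, and without low nuclease replicate 2 none of the 4 lists held a call. The splicing list also held no call without standard replicate 2, without low nuclease replicate 1 or 3 and with the replicate block, and 2 higher genes without standard replicate 1. DESeq2 on all 6 libraries called 14, 16 and 24 genes lower and 2, 1 and 4 higher in the ER, receptor and channel lists. Over all genes DESeq2 also called more than edgeR, 1926 lower and 1601 higher against 990 and 430.

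Of 79 cytosolic ribosomal protein genes, 7 (8.86%, beside 6.77% of all genes) were lower and none was higher by edgeR (3 higher at an unadjusted p under 0.05, and 2 by DESeq2), with a median of -0.29. Rpl21 had 15.9, 14.3 and 12.5 against 56.1, 53.9 and 48.8 CPM (log2 -1.89 ± 0.14, adjusted p = 0.00470), and Rps12 had 14.1, 9.69 and 8.77 against 69.6, 50.8 and 42.5 CPM (log2 -2.31 ± 0.27, adjusted p = 0.0143). Leaving out the library labelled replicate 3 gave 6 higher and 6 lower, beside 5.24% and 8.25% of all genes, and a median of -0.05. Rps9, for one, had 193, 210 and 109 against 104, 87.4 and 98.3 CPM (adjusted p = 0.0960 with and 0.0222 without that library). Ribosomal protein genes have many processed pseudogenes, so that their reads may have been divided among copies.

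The mRNAs that the study followed as candidates for stalled ribosomes were described with and without the library labelled replicate 3. The lists hold the members that the study measured in the pellet of this series, so they are not independent of these preparations. The numbers are of matched genes of the table, where a symbol with several gene IDs counts for each. Of 751 FMRP targets from Darnell and colleagues, 69 (9.19%) were lower and 8 (1.07%) were higher, beside 6.77% and 2.94% of all genes, with a median of 0.02. Of 262 from Maurin and colleagues 23 (8.78%) were lower and 5 (1.91%) were higher, with a median of 0.06. Of 186 matched to mRNAs resistant to run-off from Shah and colleagues, 9 (4.84%) were lower and 1 was higher, with a median of 0.0022. When the library labelled replicate 3 was left out, 8.25% of all genes were lower and 5.24% were higher, the median of all genes was -0.0135, and the medians of the 3 lists were further below 0. The Darnell list then held 111 lower and 15 higher with a median of -0.14, the Maurin list 48 and 8 with a median of -0.20, and the run-off list 55 and 1 with a median of -0.28. Among the FMRP targets, Ubr4, an E3 ubiquitin ligase, had 2592, 1151 and 1976 against 70.7, 76.7 and 61.9 CPM (log2 4.77 ± 0.41, adjusted p = 0.00587). Adgrb2, an adhesion receptor, had 19.1, 23.3 and 22.7 against 127, 185 and 228 CPM (log2 -3.06 ± 0.26, adjusted p = 0.00587), and Adcy1, a brain adenylyl cyclase, fell by 2.60 (adjusted p = 0.0152).

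**Figure D5:**
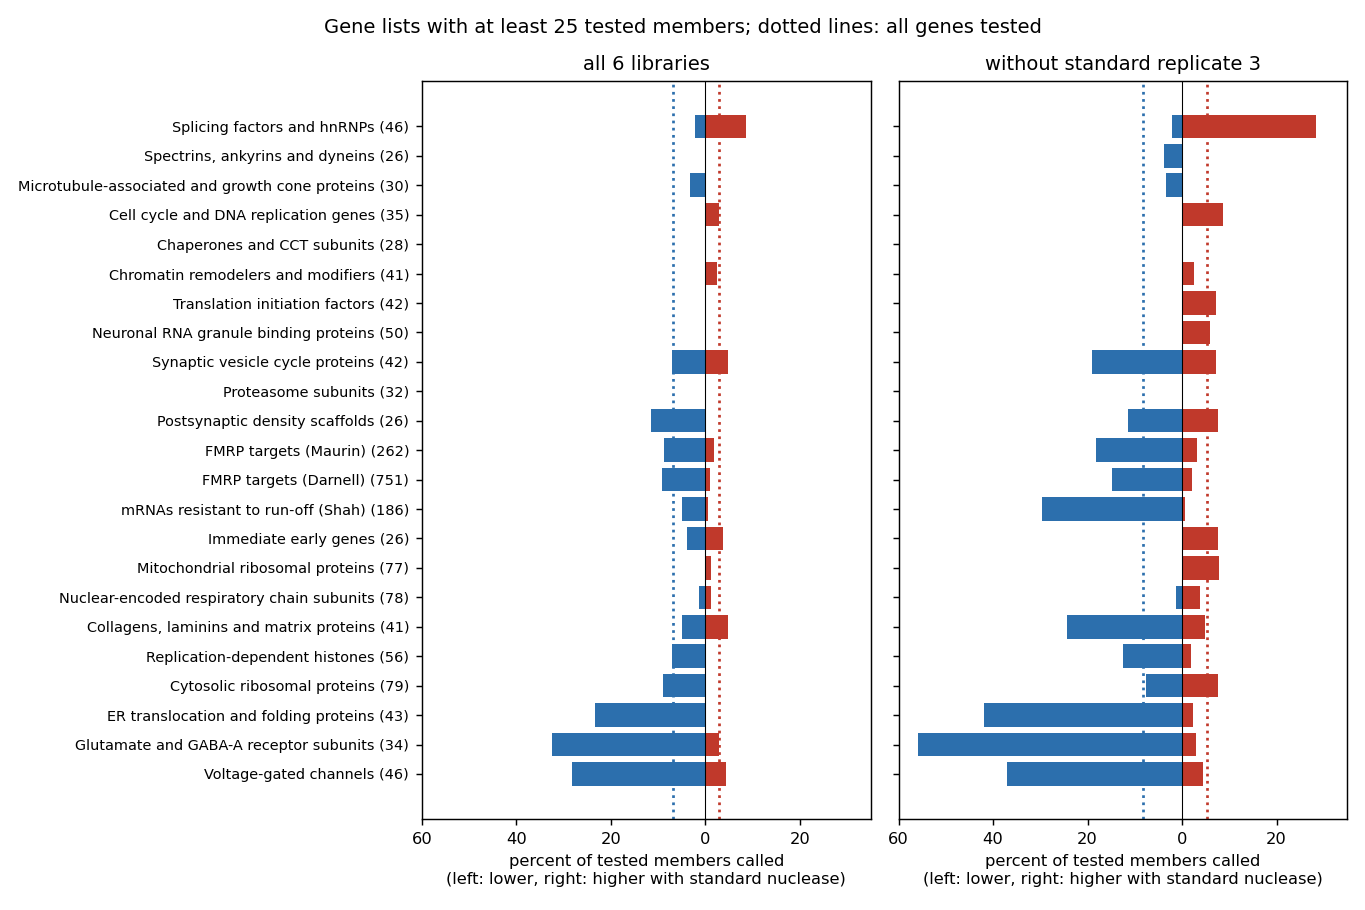
Percent of tested members called lower (blue, left) and higher (red, right) with standard nuclease in the gene lists with at least 25 tested members (number tested with all libraries in parentheses), ordered by median; the right panel leaves out the library labelled standard replicate 3, and dotted lines are the shares of all genes tested. Receptor, channel and ER lists reach 32.4%, 28.3% and 23.3% lower, against 6.77% of all genes.

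Of 42 synaptic vesicle cycle genes, 3 (7.14%) were lower and 2 (4.76%) were higher, beside 6.77% and 2.94% of all genes. With the library labelled replicate 3 left out, 8 were lower and 3 were higher, beside 8.25% and 5.24%. The genes that fell with all 6 libraries encode the SNARE Stx1a (230, 223 and 148 against 453, 830 and 602 CPM, log2 -1.65 ± 0.31, adjusted p = 0.0332), the calcium sensor Syt1 (log2 -1.33, adjusted p = 0.0304) and the glutamate transporter Slc17a7 (log2 -1.23, adjusted p = 0.0481). The genes that rose encode the clathrin adaptor Ap2a1 (log2 4.84, adjusted p = 0.0328) and the priming factor Unc13a (271, 792 and 879 against 114, 134 and 93.7 CPM, log2 2.51, adjusted p = 0.0330). Of 26 postsynaptic scaffolds, 3 (11.5%) were lower, Homer2, Dlgap3 and Shank1 (log2 -1.47, -1.20 and -1.06), and none was higher by edgeR (5 at an unadjusted p under 0.05, and 5 by DESeq2). Without the library labelled replicate 3, 3 were lower and 2 were higher, beside 8.25% and 5.24% of all genes. The median of the scaffolds was 0.08 with that library and -0.14 without it.

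Of the RNA-binding proteins of neuronal granules, none of 50 genes passed in the edgeR test, with 2 higher and 3 lower at an unadjusted p under 0.05 and 4 and 3 by DESeq2. Fxr2, Hnrnpa1 and Hnrnpa2b1 were higher without the library labelled replicate 3, 3 of 50 beside 5.24% of all genes. Tubb2b and the genes of the proteins that the study followed by immunoblot did not pass with all 6 libraries. Tubb2b had 2453, 2091 and 2271 against 2378, 2319 and 1744 CPM (log2 0.08 ± 0.29), G3bp1 had 69.3, 70.7 and 74.8 against 64.1, 64.7 and 64.2 CPM (log2 0.15 ± 0.11), and Stau2 had 170, 152 and 124 against 155, 158 and 174 CPM (log2 -0.13 ± 0.17). Neither these nor Upf1, Pura, Tia1, Eef2, Rps6, Igf2bp1 or Fmr1, passed with or without that library. In 2 genes it decided the call: Rpn1, the ER protein ribophorin I, had 9.18, 9.69 and 50.9 against 21.6, 23.1 and 18.1 CPM, and Hnrnpa2b1 had 1804, 2233 and 1000 against 1042, 973 and 973 CPM. Without it, Rpn1 was lower (log2 -1.15, adjusted p = 0.0238) and Hnrnpa2b1 was higher (log2 1.02, adjusted p = 0.0494).

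In several lists of housekeeping genes no member was called. No gene passed among 28 chaperones, 18 glycolytic enzymes, 32 proteasome subunits, 42 initiation factors, 20 elongation factors and 26 spectrins, ankyrins and dyneins by edgeR, with 5, 1, 3, 9, 3 and 3 higher and 0, 1, 4, 3, 2 and 0 lower at an unadjusted p under 0.05. DESeq2 called 4, 2, 4, 7, 3 and 3 of them higher and 0, 1, 2, 3, 2 and 0 lower. Of 77 mitochondrial ribosomal proteins 1 was higher (Mrps30), and of 78 respiratory chain subunits 1 was higher (Uqcr11) and 1 was lower (Ndufab1). Once the library labelled replicate 3 was left out, 6 mitochondrial ribosomal and 3 respiratory chain genes were higher and 0 and 1 were lower. In that fit 5.24% of all genes were higher and 8.25% were lower, the shares for each count without that library in this paragraph. In the lists above without a call, 3 initiation factors, 1 glycolytic enzyme and 1 elongation factor were then higher and 1 gene of the spectrin, ankyrin and dynein list was lower. Of 14 tubulins 2 (14.3%, beside 2.94% of all genes) were higher: Tuba8 had 17.4, 19.8 and 23.3 against 4.62, 4.67 and 4.86 CPM (log2 2.09 ± 0.16, adjusted p = 0.00470) and Tubb6 was higher by 0.72 (adjusted p = 0.0439). Of 19 selenoproteins 3 (15.8%, beside 6.77%) were lower, Gpx3, Selenow and Selenop, with a median of -0.76 over the list. Of 56 replication-dependent histones 4 (7.14%, beside 6.77%) were lower, and 7 were lower and 1 was higher when the library labelled replicate 3 was left out. Of 41 matrix proteins 2 (4.88%) were lower, Hspg2 and Cspg5, and 2 were higher, Col18a1 and Lama2, with a median of -0.17. Leaving out that library gave 10 lower and 2 higher matrix genes, beside 8.25% and 5.24% of all genes, and a median of -0.89. In the remaining lists, the shares called lay between 2.44% and 7.14% in a direction, beside 2.94% of all genes higher and 6.77% lower. Of these, 1 of 24 actin-related genes was higher (Cap2), 1 of 30 microtubule-associated and growth cone genes was lower (Marcksl1), 1 of 35 cell cycle genes (Cenpe) and 1 of 41 chromatin modifiers (Setd1a) were higher, Ier5 was higher and Egr3 lower of 26 immediate early genes, and Atf4 was lower of 14 genes with regulatory upstream reading frames. With that library left out, 4 actin-related, 3 cell cycle and 2 immediate early genes were higher and 2 genes with upstream reading frames were lower.

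Markers of cell types outside the neuron were measured alongside, since whole brain was used. Erythroid markers summed to 12.1 to 14.2 CPM with standard and 25.2 to 34.7 CPM with low nuclease, endothelial and mural markers to 46.7 to 52.4 against 64.0 to 87.1, and ependymal and choroid plexus markers to 58.1 to 71.9 against 92.6 to 191. In all 3 lists the standard libraries were lower and the groups did not overlap, which also held for 22.8% of all genes tested. Oligodendrocyte markers summed to 519 to 640 against 555 to 753 CPM, microglial markers to 477 to 2358 against 255 to 694, astrocyte markers to 886 to 1194 against 788 to 903, and neuron markers to 12120 to 12982 against 8581 to 10796, where the standard libraries were higher without overlap, as in 17.5% of all genes tested. Of these markers 11 were lower, which came to 7.69% to 33.3% of the tested members of a list beside 6.77% of all genes, among them Hbb-bs and Hbb-bt of 6 erythroid, Ttr and Rarres2 of 10 ependymal, Mog of 14 oligodendrocyte, Rgs5 of 13 endothelial, C1qc of 12 microglial, Gjb6 of 13 astrocyte markers, and the neuron markers Syt1 and Slc17a7 of 15 counted above. Acta2, Sox9 and Gad2 were higher, each 1 of 13 or 15 tested members, beside 2.94% of all genes. Without the library labelled replicate 3, no ependymal marker was called and no neuron marker was higher, so that Ttr, Rarres2 and Gad2 lost their calls. In that fit 3 neuron, 3 endothelial, 2 erythroid, 2 oligodendrocyte, 2 microglial and 1 astrocyte markers were lower, beside 8.25% of all genes. Then 1 endothelial and 1 astrocyte marker were higher, beside 5.24% of all genes. Hbb-bs, the adult beta globin, had 1.73, 1.36 and 4.95 against 11.9, 13.7 and 16.1 CPM (log2 -2.34 ± 0.48, adjusted p = 0.0378), but globin copies share sequence and their reads may have been divided. Fewer cells of a type and fewer RPFs per cell cannot be told apart in these pools, and the part of these cells in the differences above was not tested. Of the 5 mitochondrially encoded genes tested, which are made by mitochondrial ribosomes, mt-Co1 and mt-Cytb were lower (log2 -2.22 and -1.68, 40% beside 6.77% of all genes), and all 12 measured summed to 2.13 to 3.62 against 7.33 to 13.3 CPM. Without the library labelled replicate 3, 7 were tested and 1 was lower, beside 8.25% of all genes.

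Genes called only without the library labelled replicate 3 show where it differed. Igsf11, a synaptic adhesion protein, had 1363, 6404 and 2.096 CPM against 5.32, 2.69 and 4.64 with low nuclease, and Scn4a, named above, had 4426 and 19775 CPM in standard replicates 1 and 2 but 0.191 in the library labelled replicate 3. Irf4, a lymphocyte transcription factor, had 30.5, 724 and 0.381 CPM. On the lower side, Rpl13 had 11.5, 10.3 and 41.0 against 126, 79.7 and 122 CPM, and Prkd2, a protein kinase D, had 3.39, 3.29 and 24.6 against 96.9, 135 and 108 CPM. Both were lower without that library (log2 -3.32 and -5.08, adjusted p = 0.00785 and 0.00377), and with it the values were -2.38 and -3.43 (adjusted p = 0.0557 and 0.0569). Of the Y-linked genes, Kdm5d, a histone demethylase, had 7.39, 6.59 and 16.7 against 4.49, 6.36 and 6.46 CPM, and Uty, of the same class, had 6.59, 8.52 and 13.1 against 4.18, 6.14 and 6.16 CPM. Ddx3y, a helicase, had 56.4, 67.4 and 48.6 against 48.5, 50.3 and 45.3 CPM. The library labelled replicate 3 was thus the highest in the former pair and the lowest standard library in Ddx3y.

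Level, coding length and GC content went with the difference across genes, which are not independent of each other. In 5 bins of mean CPM, the median log2 fold change went from -0.34 in the lowest to 0.23 in the highest, genes called higher from 1.91% to 4.61%, and genes called lower from 6.39% to 3.04% with a peak of 10.4% in the second bin. In 5 bins of coding length the median went from -0.19 in the shortest genes to 0.22 in the longest, but without the library labelled replicate 3 the longest bin stood at 0.0051. From the least to the most GC-rich coding sequences the median went from 0.08 to -0.18, and from 0.10 to -0.24 without that library, while genes called lower went from 5.22% to 9.76%. A stretch of at least 25 bases with at least 90% identity to the ribosomal RNA sequences at hand was found in 11.1% of all genes tested, in 9.30% of those called higher and in 10.4% of those called lower. These sequences were incomplete, so that a gene without a match may still share a stretch with ribosomal RNA. Whether stray ribosomal RNA reads entered the called genes was not tested.

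The same comparison in the FMR1 KO fraction 5/6 and in the WT pellet was set beside that in WT fraction 5/6. These share no library with it, and the labels do not say whether a pellet and a fraction 5/6 library came from the same pool of brains. In FMR1 KO fraction 5/6, 1502 genes were higher and 1626 lower (20.9% of 14962), and in the WT pellet 2181 and 3494 (39.0% of 14544). Of the 415 genes called higher here and tested in the KO, 395 (95.2%) had the same sign and 237 were called, beside 46.9% and 10.2% of all genes. Of the 984 called lower, 967 (98.3%) had the same sign and 534 were called, beside 53.1% and 11% of all genes. In the pellet, 377 of 402 genes higher (93.8%) and 969 of 975 lower (99.4%) had the same sign, beside 47.4% and 52.6% of all genes. Without the library labelled standard replicate 3, 711 of 757 genes higher (93.9%) and 1217 of 1244 lower (97.8%) had the same sign in the KO. These stood beside 46.7% and 53.3% of all genes. In the KO 406 (53.6%) and 564 (45.3%) of them were called, beside 10.1% and 10.9%. The pellet then gave the same sign in 689 of 735 higher and 1226 of 1237 lower, beside 47.2% and 52.8%. The rises of Tmem247 (log2 14.62 in the KO and 17.13 in the pellet), Pou3f2 (7.39 and 8.43) and Gal3st2 (12.37 and 11.72) recurred in both. Lingo3 did not, with -2.04 and -1.20, and Tnnt2 had 0.91 in the KO.

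In the test of the difference itself, 9 of 15112 genes (0.0596%) had a preparation effect that differed between fraction 5/6 and pellet, 5 in the positive (0.0331%) and 4 in the negative direction (0.0265%), and 1 of 15105 (0.00662%) one that differed between WT and FMR1 KO. At an unadjusted p under 0.05 these numbers were 1269 and 1307, and DESeq2 called 128 and 106. The CPM below are scaled over the 12 libraries of each test and differ slightly from those above. Without the library labelled standard replicate 3, 44 and 16 genes passed. Fblim1, a filamin-binding adaptor of cell-matrix junctions on chromosome 4 (141576062 to 141606096), was the gene that passed in both tests. It had 263, 180 and 181 CPM in WT fraction 5/6 with low nuclease, against 10.99, 7.98 and 10.1 CPM with standard nuclease, 6.79 to 9.87 CPM in all 6 WT pellet libraries and 8.37 to 14.7 CPM in all 6 FMR1 KO fraction 5/6 libraries. The 3 WT fraction 5/6 low nuclease libraries thus stood alone (difference of log2 fold changes -4.31 ± 0.29 against the pellet, adjusted p = 0.000237, and -4.64 ± 0.34 against the KO, adjusted p = 0.00104).

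In most of the other genes that differed by fraction, 1 group stood apart. Wdr59, of the GATOR2 complex that relays amino acid supply, was high in fraction 5/6 with low nuclease only, at 1033, 560 and 388 CPM, and at most 63.2 CPM in any other group's library. Hmx2 and Bub3, a mitotic checkpoint gene, were high in fraction 5/6 with standard nuclease only, with 436 to 918 and 531 to 1002 CPM against at most 0.938 and 103 CPM elsewhere. These genes are neighbours on the same strand of chromosome 7, 2207 bases apart, and Bub3 at 131560222 to 131571895 follows Hmx2. Their mean levels with standard nuclease were 684 ± 246 and 774 ± 240 CPM and with low nuclease 0.25 ± 0.122 and 73.3 ± 1.57 CPM (SD, n = 3 each). In the KO fraction 5/6 both were higher too (log2 11.56 and 3.90, adjusted p = 0.0359 and 0.0428).

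The last 4 genes differed through the pellet. Pamr1, a secreted muscle regeneration protein, Grin2d, an NMDA receptor subunit, and Itga6, a laminin receptor, were highest in the pellet with low nuclease, where Grin2d had 688, 723 and 933 CPM against 10.7 to 32.5 CPM in the other 9 libraries. Exph5, a Rab effector of vesicle transport, was high in the pellet with standard nuclease only, at 18.3, 8.16 and 13.7 CPM against 0.719 to 2.32 CPM. Within fraction 5/6, Grin2d, Itga6 and Exph5 did not pass between the preparations (adjusted p = 0.620, 0.913 and 0.125), and Pamr1 was lower with standard nuclease (log2 -3.56 ± 0.28, adjusted p = 0.00473).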

How the data were processed

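RPFs were sequenced from pools of whole mouse brain, and the 6 libraries were grouped by their labels. The authors trimmed adapters with cutadapt 2.10, removed ribosomal and other unwanted RNA with Bowtie2 2.3.5, aligned to GRCm38 with STAR 2.7.8a and counted genes with featureCounts 2.2.0. The paper states that duplicate reads were marked with Picard and removed with SAMtools 1.19.2. Cdk8 nevertheless held 16594702 counts in standard replicate 1, more than the gene has bases. Counts of a gene are therefore not to be read as distinct fragments. Whether counting used strand is not given in the sources used here. The deposited table holds raw counts per gene, which were not normalized. The authors' peak lists give the signal, a peak height in RPF coverage per transcript position, for each standard library and without scaling for depth.

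Genes were named by GENCODE M21 on GRCm38. Of 16614 genes in the table, 46 that were not protein-coding or not matched, and Cdk8, were left out. edgeR 4.0.16 in R 4.3.3 was used with TMM factors, filterByExpr and the quasi-likelihood test, and p-values were adjusted over all genes tested by Benjamini-Hochberg at 0.05. Log2 fold changes are standard minus low nuclease, and CPM are scaled by TMM, with a prior count of 2 on the log scale for distances. TMM factors were 0.911, 0.595 and 0.856 for the standard and 1.24, 1.31 and 1.33 for the low nuclease libraries. A difference of differences was fitted over 12 libraries with the pellet or the FMR1 KO. Single values were compared by exact permutation of libraries. Intervals on ratios of counts are at 95% and cover counting error only, since reads are not independent molecules. The labels give the replicates as separate samples only, so p-values measure the spread between these libraries. By the paper's methods, replicates of a condition were joined after linker ligation and shared the later steps of library making. The p-values therefore do not measure the spread between such joint pools. The fit was tested on simulated data.

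Genes named were Fmr1, Wdfy1 and Y-linked genes, the 12 largest rises and falls with a mean of at least 5 CPM and no overlap between groups, up to 6 in each direction called only without the library labelled standard replicate 3, Tubb2b and the proteins blotted in the study, the 10 highest genes, called members of the lists, and genes that passed a difference of differences. Some genes named by this rule are not reported here, though they are part of the counts. Members and lists were chosen with earlier results of these data known. Matches to ribosomal RNA were found with blastn 2.17.0+. Alternatives were scaling by library size, DESeq2 1.42.0, other filters on low counts, a replicate block, a fit of all 24 RPF libraries, and leaving out each library.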

Additional observations from a re-analysis of the deposited data

Results flagged for a closer look

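Genes in which the difference between preparations itself differed between groups are given here with the difference of log2 fold changes, by edgeR's quasi-likelihood test over 12 libraries each. Between WT fraction 5/6 and WT pellet it was -4.31 for Fblim1, -4.61 for Wdr59 and -3.5 for Exph5, with adjusted p from 0.000237 to 0.0239. It was 10.15 for Hmx2, 4.73 for Pamr1, 2.84 for Bub3, 5.1 for Grin2d and 4.48 for Itga6, with adjusted p from 0.000745 to 0.0326. These 8 genes also passed without the library labelled standard replicate 3. Between WT and FMR1 KO fraction 5/6 it was -4.64 for Fblim1 (adjusted p = 0.00104) and -4.69 without that library (adjusted p = 0.00426).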

How the results depend on the processing

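Every call that an alternative to the main comparison shared with the fit as reported had the same direction. Scaling by library size gave 5326 calls, 4988 of them lower (6.35% higher instead of 30.3%), and moved the median of all genes to -0.71. DESeq2 gave 3527 calls, 1601 higher and 1926 lower, and the fit of all 24 RPF libraries 5061, with 3122 and 1939. Leaving out 1 library gave 112 to 2043 calls, 28 to 794 higher and 84 to 1249 lower, and the cause was not tested. Same-numbered libraries did not deviate together (correlations of 0.066, -0.062 and -0.037), but these values cannot tell whether such libraries were handled together. With a replicate block 382 genes were called, 112 higher and 270 lower, 70 of the listed genes were called, and the test against FMR1 KO gave 2 genes, both lower. For the difference by fraction, DESeq2 gave 128 genes (102 higher and 26 lower), a minimum of 10 counts in every library 2 lower, and leaving out 1 library 7 to 44 (3 to 33 higher, 4 to 13 lower). For the difference by genotype DESeq2 gave 106 (73 and 33), and leaving out 1 library 2 to 16 (0 to 13 higher, 1 to 7 lower). Of the 24 largest rises and falls, 8 could be tested with at least 10 counts in every library, and leaving out 1 library kept 11 (low nuclease replicate 2) to 19. The 166 calls over the gene lists became 615 with library size, 422 with DESeq2 and 9 to 303 when 1 library was left out.

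Signs turned in these values. With library size, the log2 fold change was -0.48 for Ddx3y, -0.30 for Eif2s3y, -0.49 for Upf1, -0.56 for G3bp1, -0.011 for Hnrnpa2b1, -0.68 for Tia1, -0.67 for Rps6, -0.49 for Rpn1, -0.61 for Tubb2b, -0.018 for Cap2, -0.15 for Sox9 and -0.0015 for Tubb6. Without the library labelled standard replicate 3 it was 0.55 for Fmr1, -0.20 for Upf1, -1.20 for Igf2bp1 and -1.15 for Rpn1. It was 0.019 for Fmr1 with DESeq2, -0.35 for Rpn1 with the replicate block, -0.0021 for Tia1 and -0.045 for Rps6 without standard replicate 1, -0.073 for Rps6 without standard replicate 2, -0.027 for Tia1 without low nuclease replicate 2, and 0.09 for Fmr1 and -0.051 for Tubb2b without low nuclease replicate 3. Leaving out 1 library in turn gave -0.42 to 0.55 for Fmr1, -0.20 to 0.39 for Upf1, -1.20 to 2.87 for Igf2bp1, -0.027 to 0.15 for Tia1, -0.073 to 0.36 for Rps6, -1.15 to 0.60 for Rpn1 and -0.051 to 0.17 for Tubb2b. None of these genes but Cap2, Sox9 and Tubb6 was called with all 6 libraries.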
